A study of Mus musculus with 10 samples.

Results

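The transcripts described here are those of 6 genes of protein clearance and neurodegenerative disease, Becn1, Gabarapl1, Vcp, Tardbp, Optn and Bace1, in mouse cortex. In these libraries nearly all counts fell on IDs that face a gene on the other strand, so each gene was read from the gene IDs on the other strand whose opposite exon bases it holds to at least 90%. The 6 genes are 6 of 7385 that could be read in this way, and all 6 were among the 2019 with enough counts to test. Becn1 was read from Cntd1, Gabarapl1 from 1700101I11Rik, Vcp from 1700022I11Rik, Tardbp from Masp2, Optn from 4930551O13Rik, and Bace1 from Gm16536 and Gm49338 together.

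Each library came from the cortex of 1 of 10 C57BL/6 mice, from a small piece of part of 1 hemisphere. In 5 wild-type mice (wt/wt) aged 663, 604, 663, 442 and 576 days, for animals 1 to 5, the chaperone adaptor STI1 (gene Stip1) was intact. The other 5 mice, aged 630, 606, 604, 582 and 541 days, were homozygous for an allele of Stip1 without the TPR1 domain (dTPR/dTPR, here dTPR1 homozygous). No treatment is given in the labels, and the question is which transcripts differ when STI1 lacks TPR1.

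Autophagy encloses damaged proteins and organelles in a membrane and delivers them to the lysosome. Beclin 1 (Becn1) belongs to the lipid kinase complex that starts the membrane, GABARAPL1 is a ubiquitin-like protein attached to it, and optineurin (Optn) is a receptor that ties ubiquitin-tagged cargo to it. VCP is an ATPase that pulls ubiquitin-tagged proteins out of complexes and membranes, TDP-43 (Tardbp) is an RNA-binding protein that aggregates in amyotrophic lateral sclerosis (ALS) and frontotemporal dementia (FTD), and BACE1 is the beta-secretase that makes the first cut of the amyloid precursor protein. In neurons, which do not divide, these clearance routes are known to be needed for survival, and variants of Vcp, Tardbp and Optn are known in inherited ALS.

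The part of each transcript that could be counted was the part opposite a counted ID, and it differed between the genes. All sequences below are coding exons of the principal transcript in GENCODE mouse release 21 (M21, build GRCm38), 5′ to 3′ on the strand of the gene, with the bases that face the counted ID in capitals. They are shown as examples of the faced coding bases, chosen for the parts of the proteins named below. The values of these genes rest on the whole counts of the facing IDs, reads outside these bases included. Becn1 exon 4, Vcp exon 14 and Bace1 exons 7 and 8 hold further faced coding bases, not printed. Tardbp has none to show, since its faced bases lie in the 3′ untranslated region (UTR) of its principal transcript.
Becn1 exon 5 (chr11:101295534-101295624, minus strand, opposite Cntd1): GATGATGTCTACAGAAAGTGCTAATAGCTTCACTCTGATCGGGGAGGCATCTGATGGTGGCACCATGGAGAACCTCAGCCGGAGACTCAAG
Becn1 exon 6 (chr11:101295295-101295431, minus strand, opposite Cntd1): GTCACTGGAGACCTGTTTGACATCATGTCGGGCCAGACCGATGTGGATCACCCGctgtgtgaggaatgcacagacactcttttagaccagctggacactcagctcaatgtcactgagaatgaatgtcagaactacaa
Gabarapl1 exon 1 (chr6:129533447-129533536, plus strand, opposite 1700101I11Rik): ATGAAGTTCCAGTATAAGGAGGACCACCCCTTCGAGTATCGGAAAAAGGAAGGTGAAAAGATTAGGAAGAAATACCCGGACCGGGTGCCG
Vcp exon 13 (chr4:42983364-42983576, minus strand, opposite 1700022I11Rik): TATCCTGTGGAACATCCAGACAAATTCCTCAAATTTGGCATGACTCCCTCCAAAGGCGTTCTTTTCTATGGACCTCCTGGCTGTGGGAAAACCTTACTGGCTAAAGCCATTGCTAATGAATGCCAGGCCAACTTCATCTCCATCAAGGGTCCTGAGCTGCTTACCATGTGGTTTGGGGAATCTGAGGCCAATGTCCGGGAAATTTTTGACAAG
Optn exon 6 (chr2:5040139-5040273, minus strand, opposite 4930551O13Rik): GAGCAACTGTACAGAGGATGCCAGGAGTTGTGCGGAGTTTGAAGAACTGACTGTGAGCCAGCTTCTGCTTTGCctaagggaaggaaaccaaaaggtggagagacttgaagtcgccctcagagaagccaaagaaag
Bace1 exon 5 (chr9:45857114-45857248, plus strand, opposite Gm16536): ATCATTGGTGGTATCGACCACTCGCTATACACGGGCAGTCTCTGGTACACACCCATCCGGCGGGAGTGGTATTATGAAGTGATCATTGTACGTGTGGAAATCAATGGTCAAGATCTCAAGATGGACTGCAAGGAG
Bace1 exon 9 (chr9:45860054-45860292, plus strand, opposite Gm49338): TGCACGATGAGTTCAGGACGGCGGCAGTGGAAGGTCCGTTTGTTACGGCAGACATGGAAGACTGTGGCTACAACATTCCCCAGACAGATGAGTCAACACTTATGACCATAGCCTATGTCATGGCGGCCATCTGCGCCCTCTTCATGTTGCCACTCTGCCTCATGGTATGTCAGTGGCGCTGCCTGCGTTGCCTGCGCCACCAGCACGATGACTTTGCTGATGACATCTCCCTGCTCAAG

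Becn1 lies on chromosome 11 (101285952 to 101302286, minus strand). Of the 4421 exon bases of Cntd1, 3104 face a Becn1 exon, 313 face Becn1 introns and 1004 lie outside Becn1. In the principal transcript of Becn1, of 12 exons, 2247 bases are faced, 2043 of them in the 3′ UTR and 204 coding. The end of exon 5 and the start of exon 6 printed above code for the BH3 region, through which Beclin 1 binds BCL2 proteins.

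Gabarapl1 (chromosome 6, 129533160 to 129542346, plus strand) is faced near its start, and in the principal transcript at exon 1 alone. Of the 1868 exon bases of 1700101I11Rik, 570 face Gabarapl1 exons, 88 face an intron, and 1210 lie outside the gene, upstream of its start. The capitals of exon 1 are the 90 coding bases from the start codon on, and another 287 faced bases of the principal transcript are 5′ UTR.

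Vcp (chromosome 4, 42979963 to 43000507, minus strand) and Optn (chromosome 2, 5020642 to 5064051, minus strand) are faced over short coding stretches. For Vcp these are 352 bases in exons 13 and 14 of 17, and exon 13 codes for the nucleotide-binding loop of its second ATPase domain. They are 7.75% of the exon bases of 1700022I11Rik, of which 3912 lie beyond the end of Vcp. For Optn 73 coding bases in exon 6 of 14 are faced, 6.85% of the exon bases of 4930551O13Rik, and the other 992 face Optn introns. Counts of unspliced Optn RNA and of spliced Optn RNA therefore could not be told apart.

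Tardbp (chromosome 4, 148612382 to 148627019, minus strand) shares 1817 bases with the end of Masp2, all of them 3′ UTR in its principal transcript, and 1490 exon bases of Masp2 lie outside Tardbp. Bace1 (chromosome 9, 45838580 to 45864399, plus strand) is faced at exon 5 by Gm16536 (135 bases, with 1454 more opposite introns) and at exons 7 to 9 by Gm49338 (951 bases, 561 of them coding, with 1128 more opposite introns). Counts of unspliced and of spliced Bace1 RNA could therefore not be told apart. Exon 9 codes for the membrane span and the tail of the protease, whose end carries the sorting signal read by GGA adaptors. Another ID, Rnf214, shares 975 bases at the 3′ end of Bace1, which holds 70.1% of the opposite bases of that ID, so Rnf214 was not assigned.

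**Figure D1:**
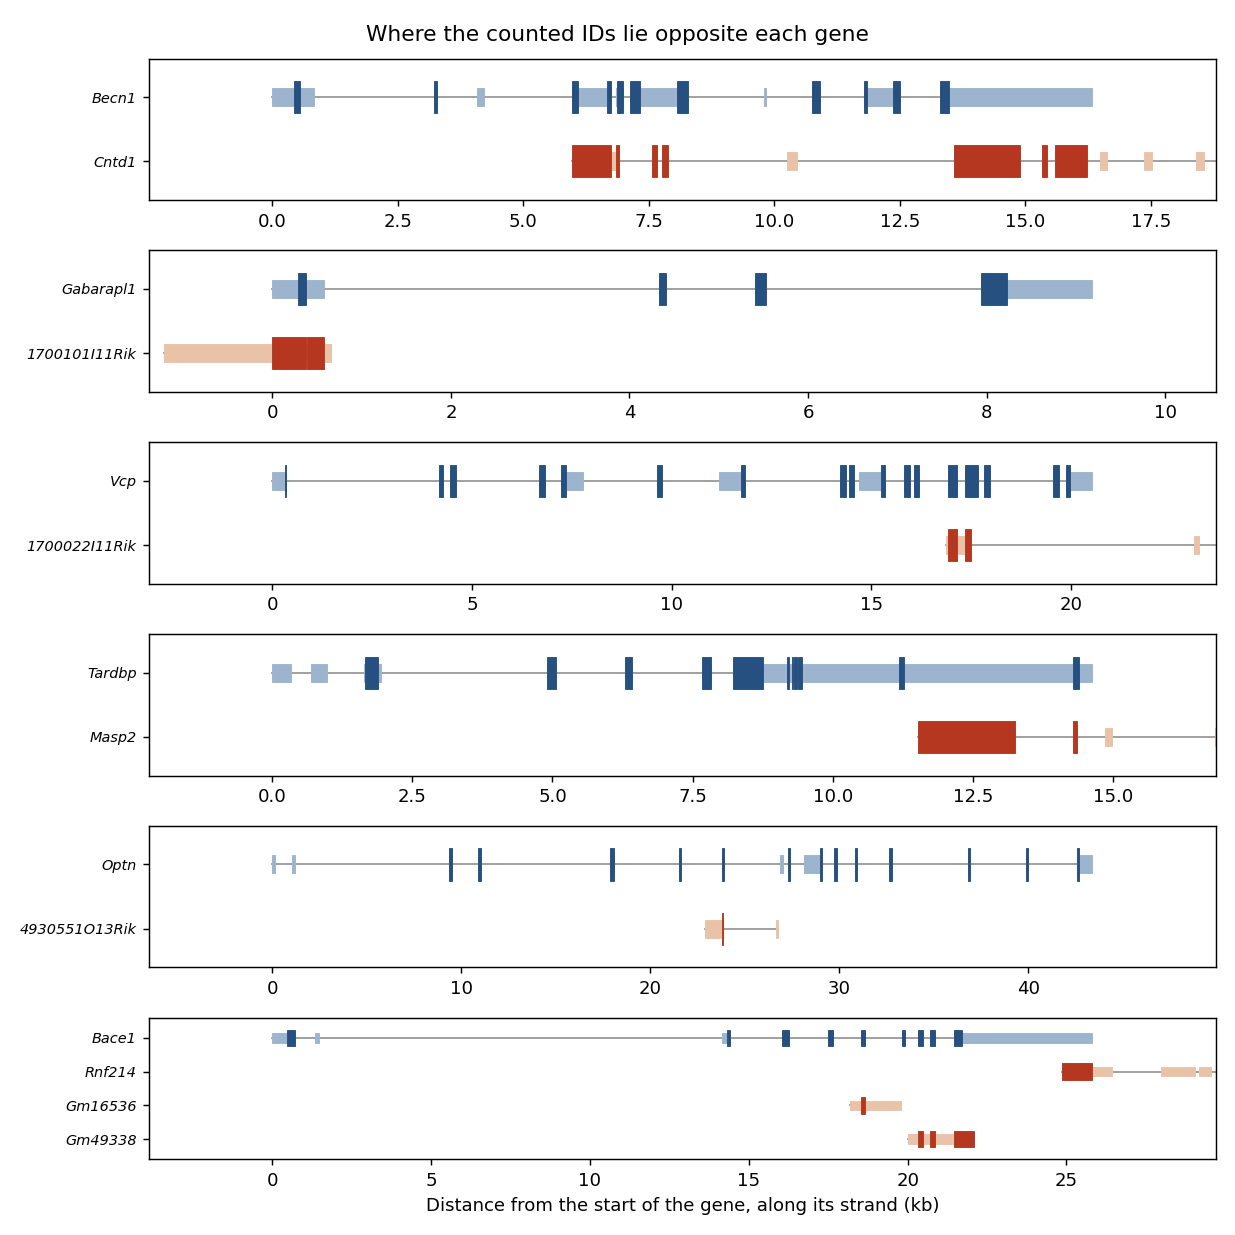
Exons of each gene (upper row of a panel, light blue, annotated coding parts of any transcript dark blue) and of the IDs that face it (orange, bases shared with an exon of the gene red), by distance in kb from the start of the gene along its strand. Shared bases lie at the start of Gabarapl1, in the middle of Optn, at both the middle and the end of Becn1, and towards the end of Vcp, Tardbp and Bace1.

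Library totals ran from 667751 to 927242 counts, of which 87.3% to 88.5% could be assigned to an opposite-strand gene, and 3 counts, the limit that a count of 0 allows, were worth 3.24 to 4.49 CPM (counts scaled to a library total of 1e6). These limits cover counting error only, since without molecular identifiers a read is not an independent molecule. The strand shows at the mitochondrial genome, where mt-Nd6 of the minus strand held a mean of 177911 counts per library and the 12 protein genes of the plus strand 220.1 together. Stip1 itself had 0 to 8 counts per library, and this does not check the genotype, since the ID lies on the wrong strand for its transcript. Of the neuron markers fixed for the tissue check, Syp, Nefl and Nefm had counts and the other 8 of 11 had none or no facing ID. The check thus rests on few genes and covers neurons only, not cortex against other brain regions. The summed level of Syp, Nefl and Nefm was 10507 to 14686 CPM in wild type and 11328 to 15514 CPM in dTPR1 homozygous libraries.

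The IDs of the 6 genes themselves held few counts, with Bace1 as the exception. Vcp and Optn had 0 counts in each of the 10 libraries, Tardbp 18, Becn1 51 and Gabarapl1 141 over all libraries. The counts read opposite to them were 1117 for Vcp, 174 for Optn, 10051 for Tardbp, 1750 for Becn1 and 1529 for Gabarapl1. The ID of Bace1 held 5897 counts against 2647 at the IDs assigned to Bace1. It lies opposite Rnf214, Gm49338 and Gm16536, so those counts were not used for Bace1.

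No gene of the 6 passed the genotype test, and none of the 2019 tested genes did (0%, edgeR quasi-likelihood test, adjusted p under 0.05). Becn1, Gabarapl1 and Bace1 had lower means in dTPR1 homozygous cortex, and Vcp, Tardbp and Optn had higher means. Log2 fold changes were below 0 in 49.8% and above 0 in 50.2% of all tested genes, so 3 of 6 either way is near that background. Becn1 alone of the 6 had an unadjusted p under 0.05, as did 57 of all tested genes (2.82%), 34 of them lower in dTPR1 homozygous cortex (1.68%). DESeq2 and limma-voom also called 0 genes, with 138 of 5176 genes and 90 of 2019 at an unadjusted p under 0.05. The 2 groups overlapped for each of the 6 genes, and they did not overlap in 0.396% of all tested genes. The adjusted p in edgeR was 0.999 for each of the 6.

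Becn1, a subunit of the lipid kinase complex, stood at 227, 276, 188, 213 and 344 CPM in wild-type animals 1 to 5 and at 217, 161, 178, 165 and 195 CPM in dTPR1 homozygous animals 1 to 5. All 5 dTPR1 homozygous values lay below the wild-type mean, and 3 of them below the lowest wild-type value, with overlap between the groups. Such a count of 5 below the mean was found in 8.72% of all tested genes. Wild type averaged 249.5 ± 61.8 CPM and dTPR1 homozygous cortex 183.4 ± 23.1 CPM (± SD over 5 animals, as below), a ratio of 0.735. The log2 fold change was -0.45 ± 0.21 (SE, 95% interval -0.89 to -0.017), with an unadjusted p of 0.0425 and an adjusted p of 0.999 in edgeR. An exact permutation test of the mean CPM, two-sided over all arrangements of the animals, gave p = 0.0397, unadjusted and 1 of 6 such tests. The highest value was that of wild-type animal 5, and without that animal the log2 fold change was -0.33 (unadjusted p 0.141 in edgeR). Without wild-type animal 3 the unadjusted p in edgeR was 0.0223. With all 10 libraries it was 0.0502 in DESeq2 and 0.0532 in limma-voom. In an edgeR fit of gene IDs as deposited, the same counts at Cntd1 gave an unadjusted p of 0.0534. The 95% interval of the log2 fold change was then -0.88 to 0.0071, which holds 0.

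Gabarapl1, which joins the growing membrane, stood at 189, 139, 187, 286 and 255 CPM in wild-type animals 1 to 5. In dTPR1 homozygous animals 1 to 5 it stood at 155, 185, 234, 150 and 162 CPM. Wild-type animals 4 and 5 were highest and wild-type animal 2 lowest, so the dTPR1 homozygous values all fell within the wild-type range. This holds for CPM of a total that includes mt-Nd6, whose share was highest in wild-type animal 2. In 4 of 5 dTPR1 homozygous animals the value was below the wild-type mean, and 4 or 5 such animals were found in 28.1% of all tested genes. The means were 211.2 ± 58.6 and 177.2 ± 34.2 CPM, and the log2 fold change was -0.25 ± 0.22 (95% interval -0.71 to 0.21). The exact permutation test, two-sided, gave p = 0.278. Without wild-type animal 4 the log2 fold change was -0.13.

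Optn, the cargo receptor, had the fewest counts, 0 to 38 in a library. Its level was 52.8, 24.8, 0, 1.5 and 0 CPM in wild-type animals 1 to 5, the counts of 0 allowing up to 3.40 CPM in animal 3 and 3.31 CPM in animal 5. In dTPR1 homozygous animals 1 to 5 it was 40.9, 28.7, 10.2, 19.5 and 44.9 CPM. Wild-type animals 3, 4 and 5 were near 0 and the highest of all 10 was wild-type animal 1, so wild type held both ends of the range. The means were 15.8 ± 23.2 and 28.8 ± 14.5 CPM, with a wild-type SD above the mean. The log2 fold change of 0.86 ± 1.03 had a 95% interval from -1.33 to 3.05, which holds both a fall and a rise of 2-fold. The exact permutation test, two-sided, gave p = 0.302, and without wild-type animal 1 the log2 fold change was 2.01. It was also 1.37 with age as a covariate and 2.20 with animal numbers as a replicate block, again without a call.

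Vcp, the segregase, was at 106, 48.5, 127, 165 and 217 CPM in wild-type animals 1 to 5 and at 155, 255, 128, 127 and 91.1 CPM in dTPR1 homozygous animals 1 to 5. The lowest value belonged to wild-type animal 2 and the highest to dTPR1 homozygous animal 2, with the others of both groups between them. The means of 132.6 ± 63.2 and 151.1 ± 62.4 CPM differed by less than either SD. The log2 fold change was 0.19 ± 0.33 (95% interval -0.51 to 0.89) and the exact permutation test, two-sided, gave p = 0.635. The sign rested on single animals, with -0.0075 without wild-type animal 2 and -0.054 without dTPR1 homozygous animal 2.

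Tardbp was the most evenly counted of the 6. It stood at 1281, 1099, 1233, 1432 and 1160 CPM in wild-type animals 1 to 5 and at 1315, 1280, 1129, 1269 and 1465 CPM in dTPR1 homozygous animals 1 to 5. The ranges nearly coincided. The means were 1241 ± 127 and 1291 ± 120 CPM, and the log2 fold change was 0.05 ± 0.14. Its 95% interval, from -0.23 to 0.34, is the narrowest of the 6 and corresponds to ratios between 0.851 and 1.27. The exact permutation test, two-sided, gave p = 0.484.

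Bace1, the beta-secretase, stood at 330, 242, 342, 385 and 520 CPM in wild-type animals 1 to 5 and at 289, 315, 325, 340 and 217 CPM in dTPR1 homozygous animals 1 to 5. All 5 dTPR1 homozygous values lay below the wild-type mean, which wild-type animal 5 raised, and 1 lay below the lowest wild-type value. The means were 363.7 ± 101.8 and 297.1 ± 48.7 CPM, with a log2 fold change of -0.29 ± 0.19 (95% interval -0.70 to 0.12). The exact permutation test, two-sided, gave p = 0.222. Without wild-type animal 5 the log2 fold change was -0.14, and without dTPR1 homozygous animal 5 it was -0.20.

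**Figure D2:**
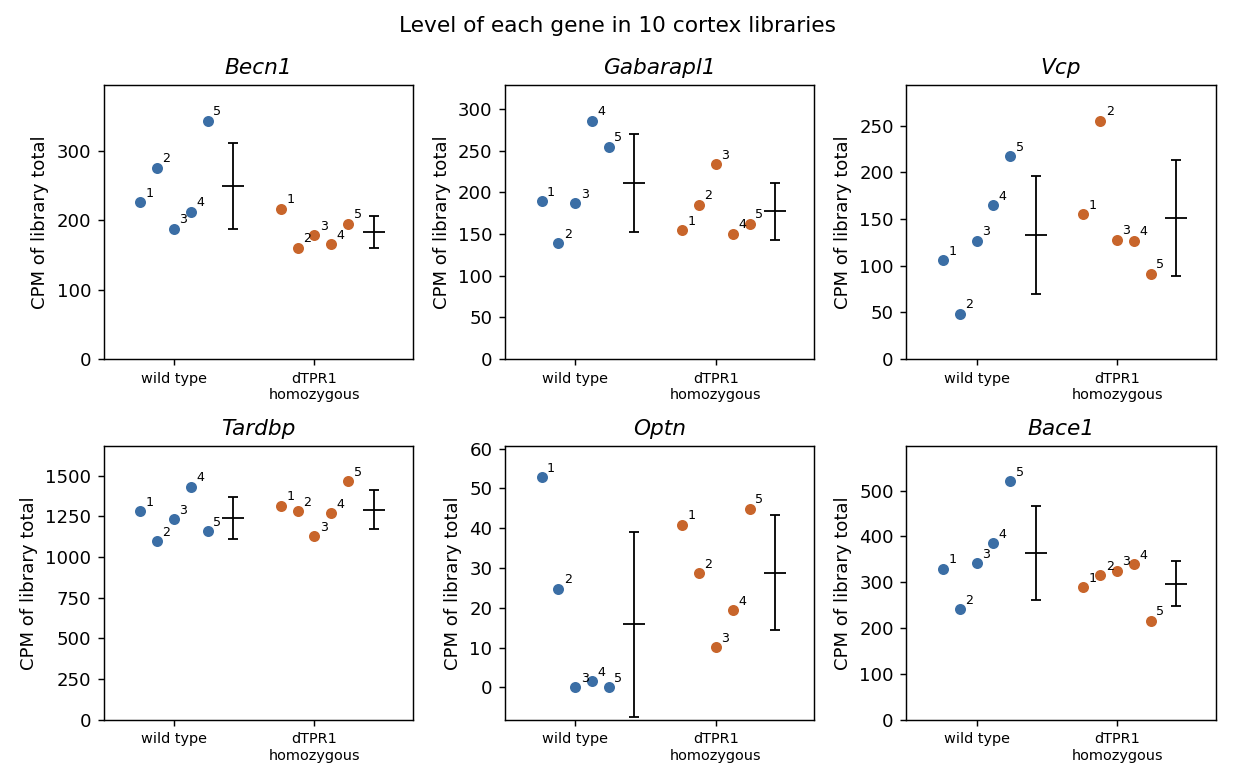
CPM of library total for each gene, by group, with points numbered by animal and the mean ± SD of 5 animals in black beside each group. The groups overlap in every panel, Becn1 and Bace1 are highest in wild-type animal 5, and the Tardbp points span 1099 to 1465 CPM.

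The IDs that make up Bace1 did not move together in every animal. At Gm16536, opposite exon 5 and its neighbouring introns, the counts were 46, 41, 121, 97 and 30 in wild-type animals 1 to 5 and 27, 22, 25, 92 and 18 in dTPR1 homozygous animals 1 to 5. At Gm49338, opposite exons 7 to 9 and their neighbouring introns, they were 191, 183, 181, 160 and 442 in wild type. In dTPR1 homozygous animals they were 206, 198, 199, 222 and 146. Wild-type animal 5, the highest at Gm49338, was the lowest of its group at Gm16536. Among dTPR1 homozygous animals, animal 5 was the lowest at both IDs. Animal 4 of that group was the highest at both in counts, but at Gm16536 alone in CPM. The share of Bace1 counts that lay at Gm16536 ran from 6.36% to 40.1%, with means of 24.4 ± 14.2% in wild type and 14.6 ± 8.24% in dTPR1 homozygous animals (± SD; two-sided exact permutation test, p = 0.206). In a fit of all 3027 testable gene IDs, where 2.54% had an unadjusted p under 0.05, the log2 fold change was -0.87 ± 0.48 at Gm16536 and -0.13 ± 0.24 at Gm49338, with an adjusted p of 0.997 in edgeR for each. Rnf214, the ID at the 3′ end that was not assigned, had -0.36 ± 0.24 and the same adjusted p. The ID of Bace1 itself, which faces these IDs, had 0.17 ± 0.15.

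**Figure D3:**
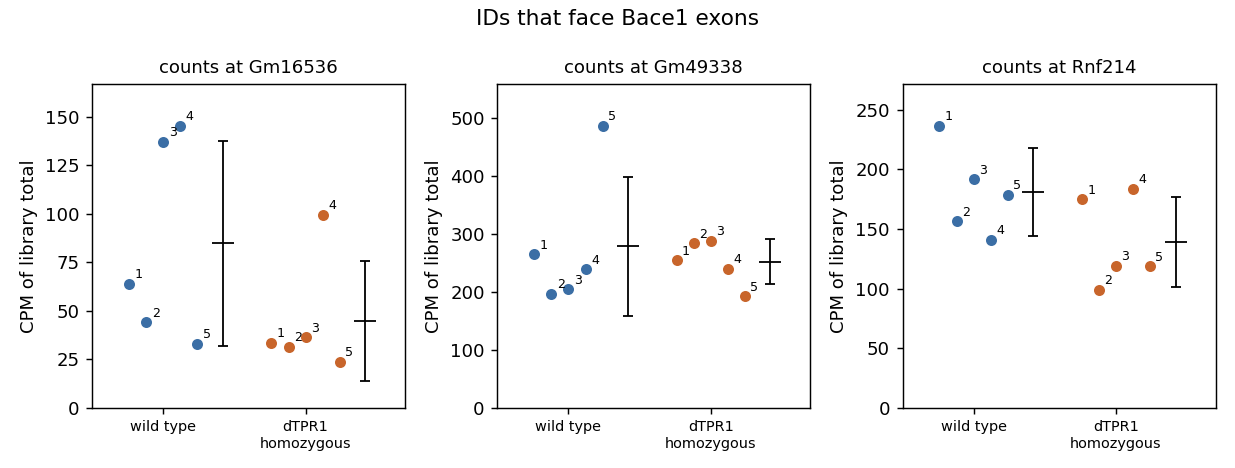
CPM of library total at the 3 IDs that face Bace1 exons, by group, with points numbered by animal and mean ± SD in black. Wild-type animal 5 stands at 487.1 CPM at Gm49338 and at 33.1 CPM at Gm16536, where wild-type animals 3 and 4 and dTPR1 homozygous animal 4 are high.

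The 6 genes differed in how much they varied between animals, given here as the coefficient of variation in wild type and then in dTPR1 homozygous animals. It was 10.2% and 9.30% for Tardbp, 24.8% and 12.6% for Becn1, and 27.8% and 19.3% for Gabarapl1. It was 27.998% and 16.4% for Bace1, 47.7% and 41.3% for Vcp, and 147% and 50.3% for Optn. Wild type had the higher value for each gene, and this difference was not tested. Over all 10 libraries, Tardbp varied by 9.45%, more than 3.79% of the 132 tested genes within 2-fold of its level, whose median was 18.9%. Vcp varied more than 80.6% of the 547 genes of its level and Optn more than 91.6% of 833. Becn1, Gabarapl1 and Bace1 were near the middle of theirs, at 25.9%, 25.1% and 25.1% against medians of 26.6%, 27.5% and 23.1%.

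Levels between the genes can be compared per length only, and the order depended on which length was used. Both scales divide the whole counts of the facing IDs, so reads outside the shared bases can raise the level per shared base. For Optn and Vcp the shared bases are only 6.85% and 7.75% of the exon bases of the facing ID. Per kb of exon bases shared with the facing IDs, the wild-type means were 682.9 ± 70.0 CPM for Tardbp, 376.7 ± 179.7 for Vcp, 370.4 ± 102.9 for Gabarapl1, 334.9 ± 93.8 for Bace1, 216.8 ± 318.1 for Optn and 80.4 ± 19.9 for Becn1. Vcp, Gabarapl1, Bace1 and Optn were neighbours that did not differ beyond their spread. Per kb of all exon bases of the facing IDs, the wild-type means were 375.2 ± 38.4 CPM for Tardbp, 113.0 ± 31.4 for Gabarapl1, 99.1 ± 27.8 for Bace1, 56.4 ± 14.0 for Becn1, 29.2 ± 13.9 for Vcp and 14.9 ± 21.8 for Optn. Tardbp was first on both scales. Vcp came next to it per shared base, and only Optn was lower per facing base, where 7.75% of the bases of 1700022I11Rik count as shared.

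No single animal was high for the whole group. Wild-type animal 5 was the highest of all 10 libraries for Becn1 and Bace1 and the second highest for Gabarapl1 and Vcp, and it was the highest in 10.5% of all tested genes. In CPM, wild-type animal 2 was the lowest for Gabarapl1, Vcp and Tardbp. Wild-type animals 2 and 3 also had the highest shares of mt-Nd6, 27.3% and 26.4% of counts against 19.4% to 23.6% in the others. CPM divide by totals that include mt-Nd6, so a high share lowers the CPM of every other gene. The order of the animals on a total without mt-Nd6 was not tested. Wild-type animal 3 had the highest summed level of striatal markers, which ran from 803.3 to 5306 CPM in wild type and from 388.3 to 2189 CPM in dTPR1 homozygous libraries, for 4 of 12 markers with counts, while Drd1, Drd2 and Adora2a had none or no facing ID. All 4 had negative log2 fold changes, with a median of -1.28, but 0 were called in edgeR and only 1 had an unadjusted p under 0.05. The 2 of 13 oligodendrocyte markers with counts summed to 842.3 to 1581 CPM in wild type and 1375 to 2291 CPM in dTPR1 homozygous libraries, with Mbp, Mog and Mag at 0 or without a facing ID. The part of striatal tissue and of oligodendrocytes in the values of the 6 genes was not tested. Without wild-type animals 2 and 3 together, the log2 fold change was -0.46 for Becn1, -0.41 for Gabarapl1, -0.071 for Vcp, 0.05 for Tardbp, 0.73 for Optn and -0.43 for Bace1, again with 0 genes called in edgeR. In bulk tissue, fewer cells of a type and less RNA per cell cannot be told apart.

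**Figure D4:**
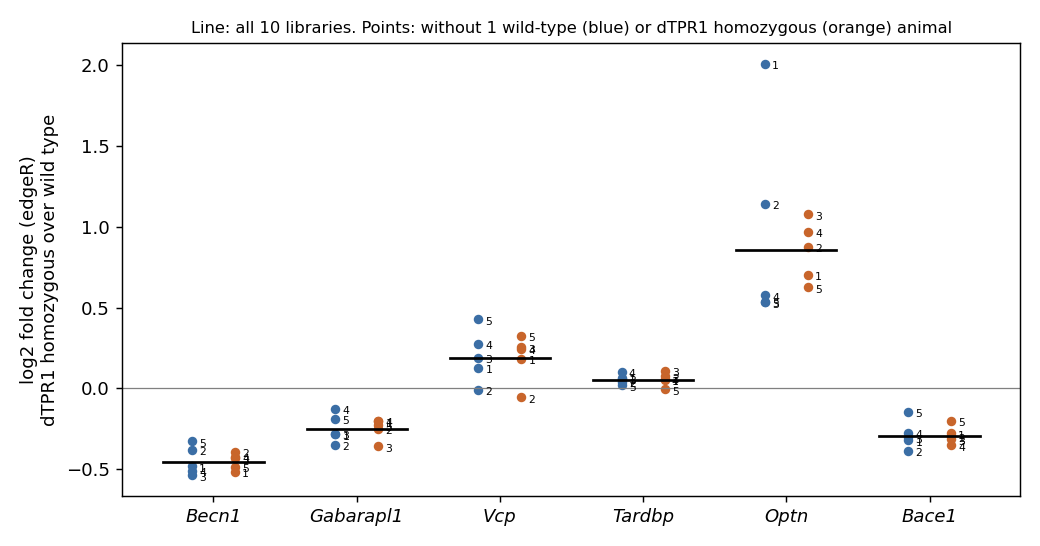
Log2 fold change of each gene with all 10 libraries (black line) and with 1 wild-type (blue) or 1 dTPR1 homozygous (orange) animal left out, each point numbered by the animal left out. Becn1, Gabarapl1 and Bace1 stay below 0, Vcp and Tardbp cross 0, and Optn runs from 0.53 to 2.01.

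Other genes of the same routes, read likewise from whole counts of facing IDs, were taken from 8 lists of autophagy and neurodegeneration genes. Of 198 genes on them, 34 could be tested, 17 with a positive and 17 with a negative log2 fold change, and 0 passed in edgeR. Their median log2 fold change was -0.0037, beside 0.0017 for all 2019 tested genes. At an unadjusted p under 0.05 there were 2 of the 34, Becn1 and Bcl2, and 1 of 28 without the 6 genes, beside 2.82% of all tested genes.

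In the Beclin 1 complex list, 3 of 16 genes were tested, 1 with a positive and 2 with a negative fold change. Bcl2, an inhibitor of cell death that binds the BH3 region of Beclin 1, was read from D630008O14Rik, with an overlap not given here. Bcl2 had means of 32.1 ± 9.52 CPM (wild type) and 59.4 ± 26.2 CPM (dTPR1 homozygous). Its log2 fold change was 0.88 ± 0.41, opposite in sign to that of Becn1, with an unadjusted p of 0.0451 and an adjusted p of 0.999 in edgeR. The unadjusted p for Bcl2 was 0.136 in limma-voom and 0.0485 in DESeq2. In edgeR it was 0.0895 with the replicate block. Without dTPR1 homozygous animal 1 the log2 fold change of Bcl2 was 0.70, and without dTPR1 homozygous animal 3 it was 1.08 (unadjusted p 0.0150 in edgeR). A link between Bcl2 and Becn1 was not tested. Rubcn, an inhibitor of the lipid kinase complex, had -0.45 ± 1.11, and from -1.16 without dTPR1 homozygous animal 2 to -0.096 without wild-type animal 1. Of the 14 initiation genes 3 were tested, the mTOR complex members Mlst8 (-0.11 ± 0.18) and Rptor (-0.41 ± 1.00) and the mTOR inhibitor Tsc2 (0.13 ± 0.35). With single animals left out Rptor ran from -0.80 (dTPR1 homozygous animal 5) to -0.082 (dTPR1 homozygous animal 1).

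In the list of the ATG8 family and its conjugation, the 3 tested of 19 genes all had negative log2 fold changes, and 0 passed. Among all tested genes 49.8% were negative. Beside Gabarapl1 the 3 were Atg4d, a protease that trims ATG8 proteins (-0.30 ± 0.24), and Atg2b, which supplies lipid to the membrane (-0.31 ± 0.52, and 0.14 without wild-type animal 2). Among the 26 receptor and fusion genes Optn and Bnip3 were tested. Bnip3, a receptor for mitochondria, was at 786.9 ± 189.6 and 908.4 ± 156.1 CPM (0.20 ± 0.17).

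Of 31 genes for VCP and its cofactors 6 were tested, 5 with positive log2 fold changes and 0 passing, beside 50.2% positive among all tested genes. The signs of Vcp and Ngly1 turned with single animals left out. Aspscr1 and Ubxn6, cofactors with a UBX domain, had 0.41 ± 0.38 and 0.30 ± 0.26. Aspscr1 was at 0.16 without wild-type animal 1, and Ubxn6 at 0.14 without dTPR1 homozygous animal 3. The ubiquitin ligase Ube4b had 0.10 ± 0.15, the glycan-removing enzyme Ngly1 0.03 ± 0.80, and the deubiquitinase Yod1 -0.84 ± 0.65. The median over the 6 tested genes of this list, Vcp included, was 0.15.

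The ALS and FTD list had 10 tested of 40 genes, 6 with positive and 4 with negative log2 fold changes, 0 passing and a median of 0.03. Chchd10, a mitochondrial protein, was its most abundant member at 6383 ± 1359 and 5587 ± 430 CPM (-0.21 ± 0.16, and 0.03 without wild-type animals 2 and 3). The tubulin Tuba4a was at 0.01 ± 0.23 and the synaptic release factor Unc13a at -0.02 ± 0.33. Tuba4a, one of those with a positive sign, turned negative with DESeq2 size factors (-0.0035) and upper-quartile factors (-0.010), and Unc13a turned positive without a filter on low counts (0.0082).

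Of 38 amyloid and Alzheimer-linked genes 5 were tested, Bace1 among them, 2 with positive and 3 with negative log2 fold changes and 0 passing. Their median of -0.29 is the value of Bace1 itself. Aph1a, a subunit of the gamma-secretase that cuts after BACE1, was at 44.9 ± 13.2 and 25.8 ± 13.7 CPM (-0.82 ± 0.48). Sorl1, which sorts the amyloid precursor protein, had -0.31 ± 0.57 and the adaptor Gga2 0.29 ± 0.59, which was 0.031 without wild-type animal 5. The kinase Gsk3a had 0.29 ± 0.16. Of 23 genes linked to Parkinson, polyglutamine and prion disease 4 were tested, Cacna1a (-0.11 ± 0.19), Tbp (0.04 ± 0.23), Atxn1 (-0.08 ± 0.34) and Fbxo7 (0.82 ± 0.97), with 0 passing.

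**Figure D5:**
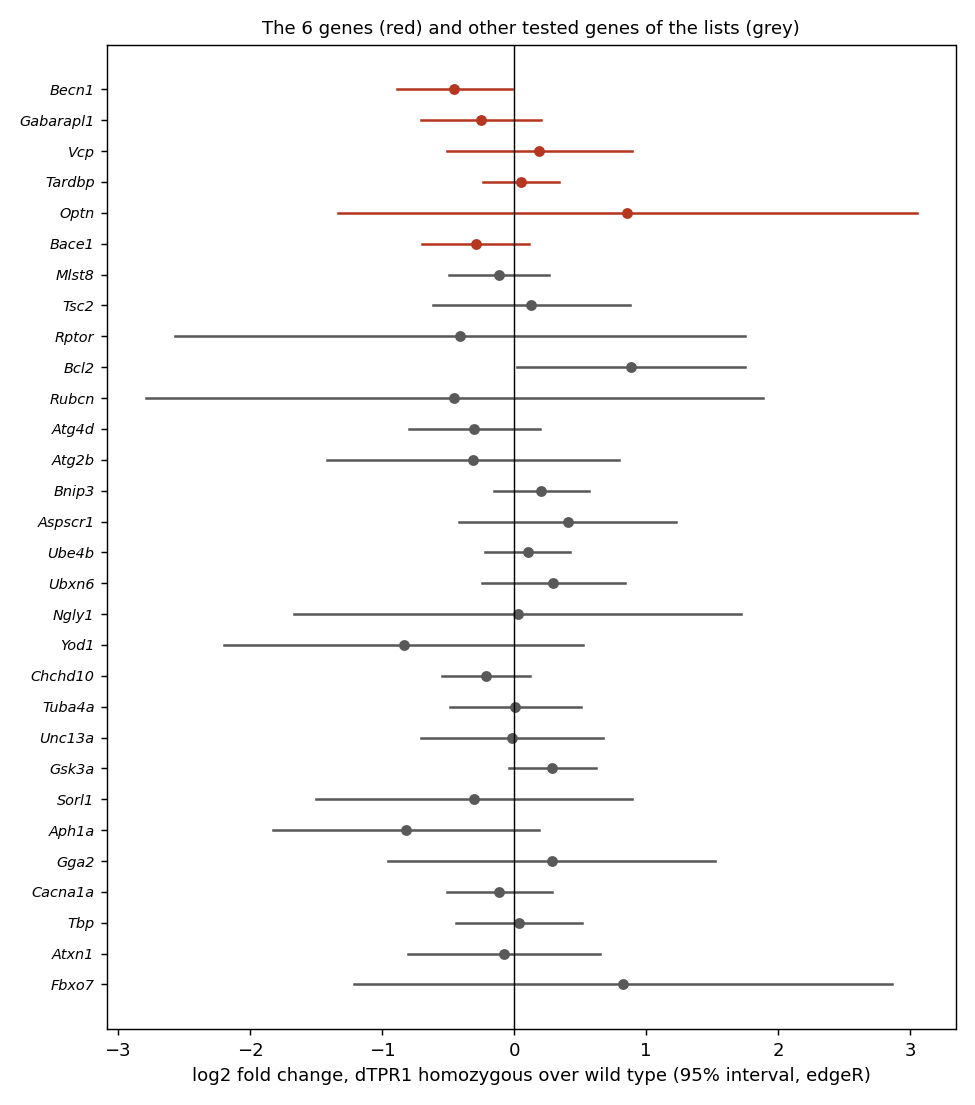
Log2 fold change, dTPR1 homozygous over wild type, with its 95% interval from edgeR, for the 6 genes (red) and 24 other tested genes of the lists (grey). Intervals are narrow for Tardbp and wide for Optn, Rptor and Rubcn, and those of Becn1 and Bcl2 alone leave out 0 before correction.

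The genes whose pattern over the 10 libraries was most like that of each of the 6 were listed by the Pearson correlation of log2 CPM, as a description. They were Crbn (r = 0.86, Spearman rho 0.89) and Rusc2 (0.85, 0.81) for Becn1, and Mafk (0.88, 0.87) and Surf2 (0.85, 0.87) for Gabarapl1. For Vcp they were Arfgap2 (0.87, 0.72) and Eif3d (0.87, 0.76), and for Tardbp Rufy2 (0.85, 0.88) and 1500004A13Rik (0.84, 0.90). Gm43909 (0.97, 0.82) and Inpp5e (0.87, 0.77) came first for Optn, and Sec61a1 (0.94, 0.84) and Zdhhc16 (0.87, 0.76) for Bace1. Gm43909 and Mafk averaged only 13.2 and 13.6 CPM. Optn had counts of 0, 1 and 0 in wild-type animals 3 to 5, so its correlations rest partly on very low counts. The 12 genes named are the highest of all tested genes, over 10 libraries in which depth and the tissue piece also vary. None of the 12 is one of the 6 genes or of the lists.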

How the data were processed

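Cortical RNA of 10 mice was sequenced, 1 library per animal. Per the labels' protocols, RNA was isolated in TRIzol and sequenced from 1 end after the SENSE Total RNA-Seq kit. The deposited values are raw counts by the authors for 53090 Ensembl gene IDs, of which 52403 were found in GENCODE M21 (GRCm38). TopHat, HTSeq, DESeq2 and build GRCm38.p5 are named in the submitters' processing notes; versions and strand settings are not given in the sources used here.

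Counts were summed per opposite-strand gene (8188 IDs, 7385 genes, 88.0% of counts). An ID gave its gene its whole count, reads outside the shared bases included, and the assignment was inferred from positions. The fit used edgeR 4.0.16 in R 4.3.3 with the filterByExpr filter, TMM factors, robust quasi-likelihood and Benjamini-Hochberg adjustment over 2019 genes. CPM are counts scaled to a library total of 1e6. Exact permutation tests ran over all arrangements of 5 against 5 animals (smallest p 0.0079). Likeness used log2 CPM with TMM factors and a prior count of 2.

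The 6 genes, the lists and the alternatives were chosen with earlier results of these data known. Named were the 6 genes in every library, in each list the tested genes (the 6 most abundant where more were tested), and the 2 genes most like each of the 6. One gene that this rule names is not reported here, though the list counts include it. The single-ID fits were added later. Labels do not say that equal animal numbers mark a shared litter or batch.

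Of 8 marker lists, neurons, striatal neurons and oligodendrocytes are described in the text. Summed CPM, first in wild-type and then in dTPR1 homozygous animals, ran from 96.3 to 317.4 and 137.6 to 406.3 for astrocytes and from 156.4 to 275.3 and 142.7 to 272.6 for microglia. It ran from 191.7 to 754.9 and 182.3 to 298.2 for endothelium and mural cells, and from 22.7 to 250.1 and 1.24 to 262.4 for choroid plexus and ependyma. Blood cell markers had 0 counts at facing IDs. The part of cell composition in the results was not tested.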

Additional observations from a re-analysis of the deposited data

Results flagged for a closer look

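In 74 groups of 5 values, 5 had an animal far from the other 4 of its group, where chance alone gives about 1 in 20. At Gm49338, which faces exons 7 to 9 of Bace1, wild-type animal 5 stood at 487.1 CPM, far above its group. At Gm16536, which faces exon 5 of Bace1, dTPR1 homozygous animal 4 stood at 99.5 CPM, far above its group. Bcl2 was at 48.5 CPM in wild-type animal 5, Atg2b at 70.3 CPM in dTPR1 homozygous animal 4 and Ubxn6 at 230.7 CPM in dTPR1 homozygous animal 3, each the highest of its group. The summed level of none of the 6 genes stood apart in this way in either group, and neither did library totals, numbers of counted IDs, the mt-Nd6 share or the share of counts at IDs that face introns.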

How the results depend on the processing

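The 0 genes called held with DESeq2 size factors, upper-quartile factors, a filter at 1 CPM in 5 libraries, DESeq2, limma-voom, age, the replicate block, other shares of the opposite bases, no mitochondrial IDs and each library left out (0 to 0); without a filter on low counts edgeR called 2 of 5176. Correlations of deviations between animals of equal number ran from -0.11 to 0.097, and 2 of 5 wild-type animals were closest to their own number. Values from so few animals cannot tell whether equal numbers mark a shared litter or batch. With the replicate block there were 0 calls, and 50 genes at an unadjusted p under 0.05 instead of 57. Becn1 was then at -0.43 (unadjusted p 0.0672 in edgeR). Becn1 has no value where all opposite bases must be held. With libraries left out singly, log2 fold changes ran from -0.54 to -0.33 for Becn1, -0.36 to -0.13 for Gabarapl1, -0.054 to 0.43 for Vcp, -0.0046 to 0.11 for Tardbp, 0.53 to 2.01 for Optn and -0.39 to -0.14 for Bace1. Beside Vcp without wild-type animals 2 and 3 (-0.071), no other setting turned the sign of the 6, and limma-voom gave 2.38 for Optn. Single-ID fits, added after seeing the data, kept the signs. Of the 24 other genes 9 turned sign somewhere. Without wild-type animals 2 and 3, Ngly1 was at -0.48, Chchd10 at 0.031 and Tuba4a at -0.25. Tuba4a was at -0.0035 with DESeq2 size factors, -0.010 with upper-quartile factors and -0.0031 in DESeq2. Unc13a was at 0.0082 without a filter and 0.046 in limma-voom. With single libraries left out the ranges were -0.023 to 0.32 for Tsc2, -0.77 to 0.14 for Atg2b, -0.29 to 0.35 for Ngly1, -0.14 to 0.24 for Tuba4a, -0.21 to 0.13 for Unc13a, -0.64 to 0.12 for Sorl1, -0.061 to 0.14 for Tbp and -0.27 to 0.087 for Atxn1. The cause was not tested. On the TMM scale the exact permutation p ran from 0.0476 for Becn1 to 0.651 for Vcp, two-sided.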
